A study of Mus musculus with 6 samples.

Results

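MHC class I antigen presentation was followed through 10 genes chosen by symbol: B2m, H2-K1, H2-D1, H2-Q7, H2-T23, Tap1, Tapbp, Psmb8, Psmb9 and Nlrc5. All 10 were found among the 32227 genes of the deposited matrices. A further list of 37 class I and antigen processing genes served as the rest of the pathway, and 36 of them were found, H2-T10 being absent.

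The study sequenced RNA of single CD8+ T cells, with the PIPseq v3 kit, in 6 libraries: 1 for each of 2 genotypes in thymus, spleen and B16-OVA tumor. Control mice were Pdcd1fl/fl on C57BL/6 without Cre, and Pdcd1 cKO mice carried the same floxed Pdcd1 alleles together with Cre under the E8I element of Cd8a, which acts in CD8 T cells after positive selection, so that by design earlier thymocytes and other cell types keep the gene. Both genotypes were adults over 8 weeks old, thymic and splenic cells were taken at baseline with a CD8a+ isolation kit, and tumor-infiltrating cells were taken with CD8 beads on day 12 from tumors that pooled several mice. B16-OVA is an injected C57BL/6 melanoma line that expresses ovalbumin, so melanoma cells in these libraries do not carry the Pdcd1 genotype of the host.

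A class I molecule is a heavy chain that, with the light chain encoded by B2m, shows short peptides from inside the cell to CD8 T cells. Peptides are made by the proteasome, in which interferon-induced subunits can replace the constitutive ones, are pumped into the endoplasmic reticulum by the TAP transporter and are loaded with the help of tapasin. NLRC5 is the transactivator of class I genes, interferon gamma induces much of the pathway, and developing thymocytes at the double-positive stage are known for low surface class I that rises as they mature.

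Levels are unique molecular identifiers (UMIs) summed over the cells of a library or class, per 1000000 UMIs of the same cells (CPM). Paired values give the library labelled Pdcd1fl/fl first and the library labelled Pdcd1 cKO after it. The filtered cells numbered 1067 and 2635 in thymus, 1478 and 4928 in spleen, and 456 and 561 in tumor, with totals of 6389966 and 19143524, 2220981 and 8923997, and 9380835 and 7924590 UMIs. Median UMIs per cell were 4361 and 5417, 1320.5 and 1615, and 13809.5 and 9510, and none of the 15 pairs of libraries shared a cell barcode (0 in each pair).

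Pdcd1 itself went against the labels in thymus and spleen. It stood at 1.88 and 6.84 CPM in thymus (12 and 131 UMIs) and at 0.45 and 11.7 CPM in spleen (1 and 104 UMIs). The log2 ratio of the library labelled Pdcd1 cKO over that labelled Pdcd1fl/fl was 1.87 (95% interval 1.01 to 2.85) in thymus and 4.69 (2.18 to 10.01) in spleen. In thymic cells with CD8 and no Dntt RNA it was 1.04 and 14 CPM. Among tumor T-cell-like cells Pdcd1 stood at 183 and 152 CPM, a log2 ratio of -0.27 (-0.41 to -0.12). In thymus and spleen the RNA was thus higher in the libraries labelled as deleted. Genotype comparisons are therefore comparisons of libraries by their label. The study reports that flow cytometry bore out the Pdcd1 loss in CD8 T cells, a measure that the deposited matrices do not hold. It also reports more RNA of cytotoxic effector genes in Pdcd1 cKO cells of these tissues. The flow cytometry runs the way the labels say. The RNA result was itself read by these labels, so it cannot check them.

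The labelled cell type was checked by its markers. All 11 T cell markers were found in every library, summing to 7090.0 and 6786 CPM in thymus, 5360 and 7237 in spleen and 2967 and 5461 in tumor, with Trbc2 the most abundant except in the first splenic library, where it was Cd3d. Melanoma markers, 10 of 10 detected, summed to 9417 and 5213 CPM in the tumor libraries, led by Dct and Pmel. The tumor libraries were therefore split into T-cell-like, macrophage-like and melanoma-like clusters, and the thymic libraries by Dntt and CD8 RNA.

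Thymic cells with CD8 RNA and no Dntt RNA held far more class I RNA than cells with Dntt RNA and no CD8 RNA, in both libraries. Dntt encodes terminal transferase, which is made in immature thymocytes, and CD8 RNA means at least 1 UMI of Cd8a or Cd8b1. The 10 genes summed to 2796 and 4090 CPM in cells with Dntt alone, 3021 and 4977 in cells with Dntt and CD8, and 6584 and 9208 in cells with CD8 alone. The light chain, the heavy chains, both loading genes and Nlrc5 all shared the rise, and the proteasome subunits Psmb8 and Psmb9 did not pass the test.

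All 4 heavy chains were called higher with CD8 alone. H2-K1, a classical heavy chain, stood at 275 and 504 CPM in cells with Dntt alone, 383 and 733 with both, and 1176 and 1546 with CD8 alone. H2-D1, the other classical heavy chain of this strain, stood at 286 and 550.4, 368 and 739, and 1055 and 1585 CPM. Each climbed at both steps in both libraries, and the classes did not overlap between the ends of the series. H2-Q7, a nonclassical Qa-2 heavy chain, went from 65.0 and 181 CPM through 96.6 and 295 to 322 and 664 CPM. H2-T23, which encodes Qa-1, the ligand of CD94-NKG2A, went from 33.8 and 44.1 CPM through 42 and 67.5 to 95.6 and 147 CPM. For both nonclassical genes the lowest value with CD8 alone lay above the highest with Dntt alone. The log2 differences, CD8 alone over Dntt alone, were 1.93 ± 0.22 (SE) for H2-K1, 1.78 ± 0.22 for H2-D1, 2.16 ± 0.22 for H2-Q7 and 1.76 ± 0.19 for H2-T23. By edgeR's quasi-likelihood test with Benjamini-Hochberg (BH) adjustment over 11570 genes, their adjusted p were 2.06e-06, 4.4e-06, 5.59e-07 and 7.29e-07, each with the same direction in 2 of 2 libraries.

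B2m, the light chain, changed less at the first step than at the second. It stood at 1275 and 2138 CPM with Dntt alone, 1307 and 2452 with both, and 3058 and 4513 with CD8 alone. The end points differed by 1.24 ± 0.26 on the log2 scale (edgeR quasi-likelihood with BH adjustment, adjusted p = 0.000895). After thinning each cell to 1000 UMIs, the median cell of the class held 1 and 2 B2m UMIs with Dntt alone and 3 and 4 with CD8 alone, and the upper quartile went from 2 and 3 to 5 and 6.

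Nlrc5, the transactivator, had the largest log2 difference of the 10 in the fit of both libraries, though in the library labelled Pdcd1fl/fl alone it was 1.92, below H2-Q7 at 2.23 and H2-K1 at 2.02. It stood at 14.3 and 16.6 CPM with Dntt alone, 20.1 and 36.4 with both, and 57.1 and 88.2 with CD8 alone. That order held in both libraries, and the difference was 2.38 ± 0.22 on the log2 scale (edgeR quasi-likelihood with BH adjustment, adjusted p = 1.04e-07). Tap1, a TAP transporter subunit, stood at 29.1 and 41.7 CPM with Dntt alone and 74.8 and 73.1 with CD8 alone. Tapbp, which encodes tapasin, stood at 60.3 and 70.6 CPM and at 178 and 140.2 CPM. The classes were again apart, with log2 differences of 1.12 ± 0.18 for Tap1 and 1.33 ± 0.18 for Tapbp and adjusted p of 7.98e-05 and 1.58e-05 by edgeR's quasi-likelihood test with BH adjustment.

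The immunoproteasome subunits followed another course. Psmb8 stood at 627 and 418 CPM with Dntt alone, 579 and 401 with both, and 423 and 312 with CD8 alone. Of these 3 classes it was lowest, within each library, where the heavy chains were highest, while the 2 libraries overlapped between classes. Psmb9 stood at 131 and 126, 132 and 132, and 145 and 139 CPM, nearly level. Their log2 differences were -0.40 ± 0.22 and 0.24 ± 0.17, with adjusted p of 0.175 and 0.313 by edgeR's quasi-likelihood test with BH adjustment. Scaled by totals alone, Psmb8 passed at -0.49 (adjusted p = 0.0197 by the same edgeR quasi-likelihood test with BH adjustment).

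In all, 8 of the 10 genes were called higher with CD8 alone than with Dntt alone, against 14.6% of all genes called higher. The median log2 difference was 1.55 for the 10 and -0.03 over all genes. These p-values measure only the spread between these libraries, since there were 2 libraries and each gave every class. Without the library as a block 3 of the 8 remained (H2-T23, Tapbp and Nlrc5), and the median was 1.55 as before. In that setting 517 of 11570 genes were called higher, where 1694 were with the block.

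The rise was taken between neighbouring classes as well. From Dntt with CD8 to CD8 alone, 8 genes were called higher (12.1% of all genes), the same 8, with a median of 1.20. From Dntt alone to Dntt with CD8, 1 was called higher (1.05% of all genes), Nlrc5, at 0.96 (adjusted p = 0.0319 by edgeR's quasi-likelihood test with BH adjustment). Cells with neither RNA lay near the immature end, summing to 3805 and 5841 CPM, and 3 genes (H2-K1, H2-Q7 and Nlrc5) were called higher there than with Dntt alone, against 3.68% of all genes called higher and 4.14% lower. Those calls varied: library totals and DESeq2 added H2-D1, DESeq2 also called Psmb8 lower, without a count filter H2-Q7 and Nlrc5 were higher and Psmb8 and Psmb9 lower, H2-K1 and H2-Q7 remained after thinning and H2-Q7 alone without cycling cells, and without the block edgeR called 0, with 2 under an unadjusted p of 0.05, where DESeq2 with the block called 5. The step at which the rise was called depended on the cells counted, as did the number of calls over all genes. Without cells that held an Mki67 or Top2a UMI, 3 genes (H2-K1, H2-D1 and H2-Q7) were called at the first step and 0 at the second, where 6 had an unadjusted p under 0.05 by edgeR. Of all 6963 genes tested, 135 were higher and 33 lower at the first step, and 33 higher and 89 lower at the second. The medians of the 10 were 0.84 and 0.60. After thinning to 1000 UMIs the counts were 3 and 0, with 3 genes under an unadjusted 0.05 at the second step. Of all 6260 genes tested, 37 were higher and 8 lower at the first step, and 10 and 3 at the second. The medians of the 10 were 0.81 and 0.49. Classes were set anew from the thinned counts and so hold other cells. Those with Dntt and CD8 went from 349 and 797 cells to 54 and 92, and those with neither from 91 and 224 to 553 and 1232. Without the library as a block edgeR called 0 of the 10 at either step, with 1 and 6 under an unadjusted p of 0.05. Almost no gene was called in that setting: of 11570, 2 were higher and 0 lower at the first step. At the second step, and for cells with neither RNA against Dntt alone, 0 were higher and 1 lower. DESeq2 with the block called 0 (5 under 0.05) and 8 of the 10. Library totals also lost the Nlrc5 call of the first step, leaving 0 by edgeR with 5 genes under an unadjusted p of 0.05. Over the whole interval the same 8 were called without cycling cells and after thinning, where 675 of 6963 and 523 of 6260 genes were called higher.

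Other cell types moved with these classes. Cycling markers, 4 of 4 detected, summed to 1052 and 599 CPM with Dntt alone and 466 and 184 CPM with CD8 alone, led in the latter by Top2a. Immature thymocyte markers summed to 1073 and 1222 CPM with Dntt alone and 154 and 90.9 CPM with CD8 alone, where Dntt is 0 by the rule. Fibroblast markers were at 2.53 and 8.77 CPM (2 and 5 of 5 detected) with Dntt alone, at 272 CPM (4 of 5 detected, Dcn 200.5 CPM, Pdgfra at 0) and 28.1 CPM (5 of 5 detected, Dcn 23.8 CPM) with CD8 alone, and at 370 and 190 CPM (4 and 5 of 5, led by Dcn) with neither. Macrophage markers with CD8 alone were at 3.12 CPM (2 of 11) and 3.9 CPM (4 of 11), with Csf1r and the C1q genes at 0. NK markers went from 2.11 and 6.95 CPM with Dntt alone to 17.7 and 15.6 CPM with CD8 alone. Thymic epithelium markers, led by Epcam, went from 16.5 and 31.6 CPM to 7.27 and 2.93 CPM. Without cells that held an Mki67 or Top2a UMI the median of the 10 was 1.32, and the part of the other panels in the class I difference was not tested.

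**Figure D1:**
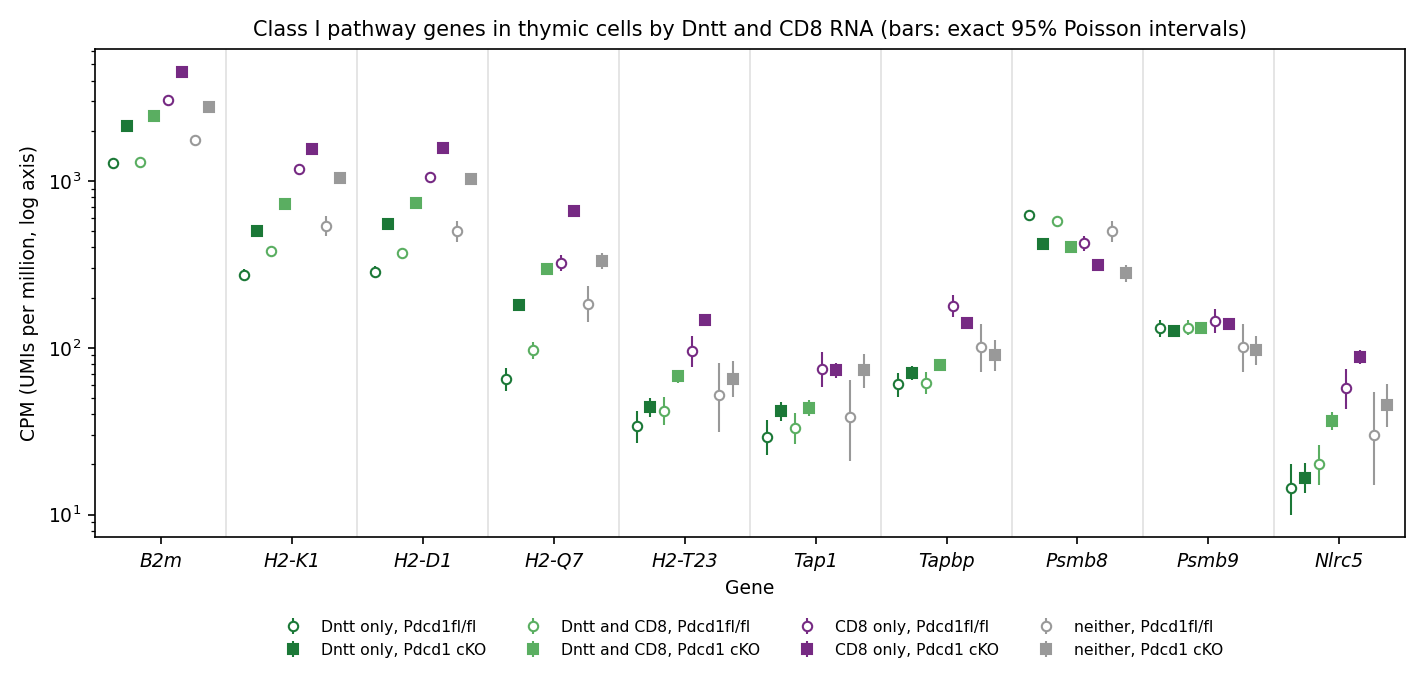
CPM of the 10 genes (log axis) in the 4 thymic classes by Dntt and CD8 RNA, open circles for the library labelled Pdcd1fl/fl and filled squares for that labelled Pdcd1 cKO, with exact 95% Poisson intervals. H2-K1 runs from 275 and 504 CPM with Dntt alone to 1176 and 1546 with CD8 alone, while Psmb8 runs from 627 and 418 down to 423 and 312.

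Of the rest of the pathway in thymus, 14 of 33 tested genes were called higher and 5 lower with CD8 alone, beside 14.6% of all genes higher and 16.2% lower, with a median of 0.31. The share of lower genes was thus no larger than among all genes. Of the 7 other H2 heavy chains tested 5 were called higher, among them H2-Q6 at 2.88, H2-Q4 at 1.84 and H2-T22 at 1.43, and 1 lower, H2-Q2 at -0.97, which is named after its value was seen. Irf1, a transcription factor of the interferon response, rose too, at 0.76. The constitutive catalytic subunits, which the immunoproteasome replaces, fell: Psmb5 at -0.95, Psmb6 at -0.82 and Psmb7 at -0.75, as did the chaperone Canx at -0.54. Psmb10, the third immunoproteasome subunit, was at 0.21, Tap2 at -0.06, Psme1 at 0.31, Psme2 at 0.31, Calr at 0.03 and Erap1 at 0.13, none of them called.

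Between the thymic libraries, most class I genes were higher in the one labelled Pdcd1 cKO. Over all filtered cells H2-Q7 stood at 124 and 363 CPM, H2-D1 at 449 and 926, H2-K1 at 471 and 902, and B2m at 1584 and 2932. H2-T23 stood at 47.6 and 82.1 CPM, Nlrc5 at 24.1 and 45.1, Tap1 at 38.2 and 52.6, and Tapbp at 80.9 and 93.3. Psmb8 went the other way, from 569 to 376 CPM, and Psmb9 stood at 132 and 130.2. So the heavy chains, light chain and transactivator were high in the second library and Psmb8 was high in the first. Other panels differed between the same libraries, cycling markers at 969 and 533 CPM (4 of 4 detected, led by Top2a), immature thymocyte markers at 828 and 700 (6 of 6, led by Dntt) and fibroblast markers at 64.2 and 20.8 (5 of 5, led by Dcn), and their part was not tested.

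With 1 library a genotype there are no replicates and no test, intervals cover counting error alone, and a gene is called when it differs at least 1.5-fold. The folds were 2.94 for H2-Q7 (log2 1.55, 1.45 to 1.66), 2.07 for H2-D1 (1.05, 0.99 to 1.10), 1.91 for H2-K1 (0.94, 0.88 to 0.99) and 1.85 for B2m (0.89, 0.86 to 0.92). They were 1.87 for Nlrc5 (0.90, 0.65 to 1.16) and 1.73 for H2-T23 (0.79, 0.61 to 0.97), and Psmb8 lay at log2 -0.60 (-0.66 to -0.54). Thus 6 of 10 were at least 1.5-fold higher (10.4% of 10380 genes) and 1 lower (16.1%), and the median was 0.84 against -0.08 over all genes. Psmb8 kept its call in 1 of 6 alternatives, that without a cell filter. It lay close to the fold at -0.58 with a stricter cell filter, -0.56 after thinning and -0.53 by a median of ratios. It was at -0.44 in cells with CD8 RNA, and when mitochondrial genes, ribosomal protein genes and Malat1 were left out of the total.

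The thymic difference varied between classes of cells, whose shares also differed. Cells with CD8 alone made up 240 of 1067 and 956 of 2635 cells. Within the class with CD8 alone the median was 0.48, and 4 genes were at least 1.5-fold higher (4.86% of 6070 genes): H2-Q7 at 1.04, Nlrc5 and H2-T23 at 0.63 and H2-D1 at 0.59. Tapbp was at -0.34 (-0.58 to -0.09) and Psmb8 at -0.44 there, while the median over all genes was -0.31. Within cells with Dntt and CD8 the median was 0.77 with 6 genes higher (7.59%), and within cells with Dntt alone it was 0.45 with 4 genes higher (15.5%) and 1 lower (14.4%). H2-Q7 was at 1.48 in that last class. Cells with neither RNA had a median of 0.67 over 7 genes, with 4 higher (21.6%) and 1 lower (22.1%). Among the rest of the pathway 8 of 31 genes were at least 1.5-fold higher and 4 lower over all cells, beside 10.4% and 16.1% of all genes. The pathway median was 0.17 against -0.08 over all genes.

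All 10 genes were higher in the splenic library labelled Pdcd1 cKO, where the median over all genes was above 0 as well, at 0.16. H2-D1 stood at 935 and 1989.9 CPM, H2-T23 at 54.0 and 111, Tapbp at 101 and 154, and Tap1 at 45.0 and 66.7. B2m stood at 3177 and 4066 CPM, H2-K1 at 1385 and 1942, and H2-Q7 at 378 and 550.1. Psmb8 stood at 366 and 466 CPM, Psmb9 at 83.3 and 121, and Nlrc5 at 70.7 and 83.4. Only the interval of Nlrc5 reached 0 (0.24, -0.01 to 0.50). The folds were 2.13 for H2-D1 (log2 1.09, 1.02 to 1.16), 2.05 for H2-T23 (1.03, 0.76 to 1.32) and 1.53 for Tapbp (0.61, 0.41 to 0.82), the 3 of 10 that were at least 1.5-fold higher, against 16.8% of 7843 genes higher and 3.49% lower.

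The splenic median was 0.54 against 0.16 over all genes. Of the other pathway genes 10 of 29 were at least 1.5-fold higher, beside 16.8% of all genes, with a median of 0.41. Taking out the shift of all genes by a median of ratios left 0.37 for the 10. Tapbp lay below the fold in 5 of 6 alternatives, at 0.44 to 0.55, and kept its call only in cells with CD8 RNA, at 0.62. The granulocyte panel rose with the label, from 2.7 CPM (2 of 7 detected, Prtn3 most abundant) to 69.8 CPM (4 of 7 detected, Mpo most abundant, S100a8, S100a9 and Retnlg at 0). NK markers were at 14 and 41.5 CPM (2 and 3 of 3, led by Klre1), macrophage markers at 4.95 and 14.2 (5 and 8 of 11, led by Cd68), immature thymocyte markers at 5.4 and 13.2 (4 of 6, led by Cd24a) and fibroblast markers at 2.7 and 8.52 (3 and 5 of 5). Their part was not tested. Within splenic cells with CD8 RNA the values were 955 and 2027 CPM for H2-D1 and 58.7 and 112 for H2-T23, close to those of all cells. Cells with a Ccl5 UMI, a chemokine of effector and memory CD8 cells, were set beside cells with none. In spleen 750 of 863 and 3800 of 3885 cells with CD8 RNA held such a UMI, leaving 113 and 85 without. In thymus it was 116 of 240 and 518 of 956 cells with CD8 alone. Background Ccl5 RNA was not estimated, so the split is by UMI and not by cell state. The medians were -0.08 and 0.12 in spleen over 7 and 10 genes and 0.18 and 0.01 in thymus over 7 and 10 genes, all with at least 100 UMIs. Single genes went both ways, from -0.41 to 0.68 and from -0.20 to 0.75 in spleen, where 1 of 7 and 1 of 10 were at least 1.5-fold higher, Tapbp at 0.68 (-0.20 to 1.72) and Tap1 at 0.75 (-0.48 to 2.38), beside 11.1% and 22.7% of all genes higher and 5.53% and 15.1% lower.

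Across tissues, cells with CD8 RNA (in thymus without Dntt RNA) overlapped in CPM between thymus and spleen for 8 of the 10 genes. Tumor lay apart from spleen for H2-T23, Tap1, Psmb8, Psmb9 and Nlrc5. Overlap was not counted over all genes, so it describes single genes and is no result about the 10. H2-K1 stood at 1176 and 1546 CPM in thymus, 1406 and 1929 in spleen and 1577 and 1415 in tumor. B2m stood at 3058 and 4513, 3269 and 4093, and 3680.3 and 4197 CPM. All 3 tissues overlapped for both. Between spleen and thymus 0 genes were called by edgeR's quasi-likelihood test (1.28% of all genes higher, 1.7% lower), 0 had an unadjusted p under 0.05, and DESeq2 called 0. The median was 0.09. Tap1, at 74.8 and 73.1 CPM in thymus and 40.6 and 65.9 in spleen, and Psmb9, at 145 and 139 and at 84.7 and 119.7, lay lower in both splenic libraries and were not called.

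Both immunoproteasome genes of the 10 were called higher in tumor than in spleen. Psmb9 stood at 145 and 139 CPM in thymus, 84.7 and 119.7 in spleen and 419 and 578 in tumor. Psmb8 stood at 423 and 312, 374 and 475, and 926 and 1212 CPM. For both, each tumor library lay above each library of the other tissues. Tap1 stood at 40.6 and 65.9 CPM in spleen and 92.6 and 124 in tumor, and H2-T23 at 58.7 and 112 and at 137 and 197. The log2 differences, tumor over spleen, were 3.02 ± 0.27 for Psmb9 (adjusted p = 7.41e-06), 2.07 ± 0.30 for Psmb8 (0.000166), 1.77 ± 0.25 for Tap1 (0.000125) and 1.75 ± 0.26 for H2-T23 (0.000189) by edgeR's quasi-likelihood test with BH adjustment.

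Nlrc5 was low in tumor. It stood at 57.1 and 88.2 CPM in thymus, 65.9 and 82.5 in spleen and 7.33 and 11 in tumor, with no overlap between tumor and either other tissue. The log2 difference over spleen was -2.29 ± 0.29 (edgeR quasi-likelihood with BH adjustment, adjusted p = 6.41e-05). Nlrc5 and the heavy chains stood apart in these cells, with H2-D1 at 1625 and 1886 CPM and H2-Q7 at 513 and 491 in the same tumor cells against 955 and 2027 and 379 and 549 in spleen.

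In this fit 7 genes were called higher in tumor than in spleen (24.6% of all genes) and 1 lower (23.7%), with a median of 1.06 against 0.02 over all genes. The count depended on the scaling. Library totals alone moved the all-gene median to -0.73, the median of the 10 to 0.30 and the calls to 4 higher (10.9% of all genes) and 1 lower (38%): Psmb9, Psmb8, Tap1, H2-T23 and Nlrc5. Those 5 were also the ones of the 10 whose CPM did not overlap between tumor and spleen, which was not counted over all genes. H2-D1 at 0.33, H2-Q7 at 0.16 and Tapbp at 0.28 were not called on totals. The median of the 10 was 0.93 without the splenic library labelled Pdcd1fl/fl and 1.30 without that labelled Pdcd1 cKO. It was 0.75 and 1.43 without the tumor library of each label, and 1.05 without either thymic library. Such fits leave 1 sample in a tissue, so their calls are not given. Tumor libraries also differed from the others in pooling, isolation and depth, which cannot be told apart from tissue. Other panels were higher in these tumor cells as well: cycling markers at 331 and 384 CPM (4 of 4 detected, led by Birc5) against 45.6 and 34.4 in spleen, melanoma markers at 271 and 190 CPM (10 of 10) against 9.41 and 9.15, and macrophage markers at 29.6 and 55.4 CPM (10 and 11 of 11) against 5.07 and 14.2. Without cells that held an Mki67 or Top2a UMI, Psmb9, Psmb8, Tap1, H2-T23 and Nlrc5 kept their calls, and the part of the other panels was not tested.

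Among the other pathway genes 11 of 31 were called higher and 7 lower in tumor, beside 24.6% and 23.7% of all genes, with a median of 0.30. On library totals it was 3 higher and 13 lower, beside 10.9% and 38% of all genes, with a median of -0.44. In both fits the share of lower genes was near that among all genes, and on library totals the share of higher genes was near it too. The values given next are of the TMM fit, and no more than 3 of the higher ones can keep their call on totals. The constitutive subunits were higher along with the induced ones, Psmb5 at 2.90, Psmb7 at 2.33, Psmb6 at 1.54 and Psmb10 at 1.82, as were the chaperones Calr at 1.38 and Canx at 0.96 and the proteasome activators Psme1 at 0.99 and Psme2 at 0.91. Lower were Irf1 at -2.38 and H2-Q4 at -0.86. Tap2 was at 0.29, Erap1 at -0.24 and H2-Q6 at -0.14, none of them called.

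**Figure D2:**
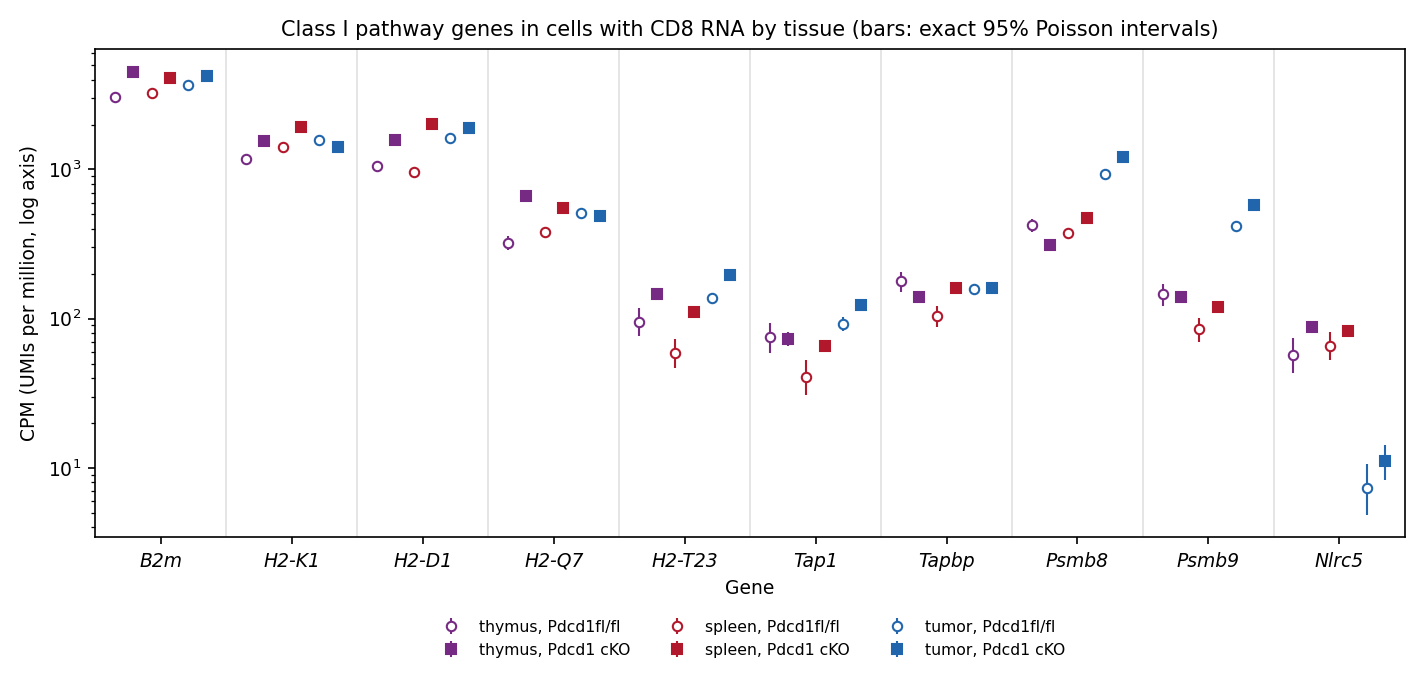
CPM of the 10 genes (log axis) in cells with CD8 RNA from thymus, spleen and tumor, 1 point per library with its exact 95% Poisson interval. Psmb9 stands at 419 and 578 CPM in tumor, above 84.7 and 119.7 in spleen, and Nlrc5 at 7.33 and 11, below 65.9 and 82.5.

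Within the tumor libraries the 3 cell classes used the pathway in different mixtures. Cell counts were 287 and 469 for T-cell-like clusters, 27 and 34 for the macrophage-like cluster and 142 and 58 for the melanoma-like cluster. By CPM, melanoma-like cells held most B2m and almost no H2-Q7, T-cell-like cells most H2-Q7 and Psmb9, and macrophage-like cells most H2-K1 and H2-D1. Psmb8 in macrophage-like cells was close to T-cell-like cells, at 106% and 97.4% of their level. In the TMM fit H2-K1 and H2-D1 differed by 0.22 and 0.09 between macrophage-like and T-cell-like cells and were not called. The 10 genes summed to 9167 and 10335 CPM in T-cell-like cells, 13279 and 22090.5 in macrophage-like cells and 10236 and 17587 in melanoma-like cells.

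H2-Q7 separated T-cell-like from melanoma-like cells by the widest margin. It stood at 512 and 495 CPM in T-cell-like, 203 and 403 in macrophage-like and 18.0 and 33.2 in melanoma-like cells. Psmb8 stood at 930.1 and 1214, 988 and 1183, and 125 and 424 CPM. Both were higher in T-cell-like than in melanoma-like cells with no overlap between libraries. The log2 difference, T-cell-like over melanoma-like, was 5.07 ± 0.33 for H2-Q7 (adjusted p = 2e-08) and 2.82 ± 0.33 for Psmb8 (7.17e-06) by edgeR's quasi-likelihood test with BH adjustment over 12254 genes.

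H2-T23 and Psmb9 were also called but overlapped between classes in CPM. H2-T23 stood at 137 and 197 CPM in T-cell-like and 20.4 and 145 in melanoma-like cells, and Psmb9 at 421 and 577 and at 230.1 and 477. In each library the T-cell-like value was the higher, with log2 differences of 2.14 ± 0.42 (adjusted p = 0.000815) and 1.25 ± 0.23 (0.000559) by edgeR's quasi-likelihood test with BH adjustment. H2-K1 stood at 1575 and 1440.4 CPM in T-cell-like and 1009.7 and 1890.4 in melanoma-like cells, and H2-D1 at 1632 and 1896 and at 1237 and 2456. Their order turned between the libraries, T-cell-like being higher in the one labelled Pdcd1fl/fl and lower in the other. The fit called both at 0.81 ± 0.26 (adjusted p = 0.0226) and 0.72 ± 0.26 (0.0372) by edgeR's quasi-likelihood test with BH adjustment, but on library totals they were at 0.12 and 0.03 and not called.

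B2m ran the other way, at 3697 and 4216 CPM in T-cell-like and 7367 and 11709 in melanoma-like cells. Each melanoma-like value lay above each T-cell-like value, with a log2 difference of -0.54 ± 0.23 (adjusted p = 0.072 by edgeR's quasi-likelihood test with BH adjustment) and of -1.22 (adjusted p = 0.000111 by the same edgeR quasi-likelihood test with BH adjustment) on library totals. Tap1 stood at 93.1 and 125 CPM against 89.5 and 171, Tapbp at 162 and 162 against 127 and 268, and Nlrc5 at 7.30 and 11.4 against 12.1 and 13.1. Those 3 differed by 0.47, 0.48 and 0.21 and were not called. Their signs depend on the scaling: on library totals they were at -0.20, -0.20 and -0.45, and for Nlrc5 both T-cell-like CPM lie below both melanoma-like ones.

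In all 6 of the 10 were called higher in T-cell-like than in melanoma-like cells, against 20.1% of all genes, and the median was 0.76 against -0.03. Library totals moved the all-gene median to -0.69 and the median of the 10 to 0.08, with 4 called higher (10.2%) and B2m called lower (38%), and DESeq2 called 4. Each library alone gave a different median, 1.31 without the library labelled Pdcd1 cKO and 0.26 without that labelled Pdcd1fl/fl, and 2 genes, H2-Q7 and Psmb8, were called without the library as a block. Among the rest of the pathway 14 of 32 were called higher and 5 lower (20.1% and 21.2% of all genes) with a median of 0.67, and on library totals 7 higher and 10 lower with a median of 0.00. In the TMM fit H2-Q6 was at 5.07, H2-Q4 at 4.38 and Psme2 at 1.01 on the higher side and Canx at -0.80 on the lower.

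The T-cell-like clusters differed in their share of each library: 195 of 287 cells of the library labelled Pdcd1fl/fl lay in cluster 1, with Dapl1, Ccr7 and Slamf6 among its 10 highest-fold genes, and 392 of 469 of the other in cluster 0, with Trgc2, granzymes and Prf1 among its own. Class I RNA was close in both, summing to 9718 and 10408 CPM in cluster 0 and 8832 and 9977 in cluster 1. T cell markers in melanoma-like cells, 11 of 11 detected and led by Trbc2, summed to 189.6 and 329 CPM, or 2.73% and 4.12% of their level in T-cell-like cells. The H2-Q7 level in melanoma-like cells, at 3.51% and 6.72% of that in T-cell-like cells, lay above that share in both libraries, and H2-T23 was at 14.9% and 73.4% and Psmb8 at 13.4% and 35%. How much of each came from T cell RNA was not tested.

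Macrophage-like cells, 27 and 34 in number, were compared with T-cell-like cells in the same fit. H2-K1 stood at 2624 and 3416 CPM, H2-D1 at 2149 and 4599.5, and B2m at 6264 and 10876, each above both T-cell-like values. H2-Q7 at 203 and 403 CPM lay below both, and Psmb9 at 326 and 541 overlapped. The fit called H2-Q7 lower at -1.53 ± 0.30 (adjusted p = 0.00112) and Psmb9 lower at -0.97 ± 0.24 (0.00712) by edgeR's quasi-likelihood test with BH adjustment, 2 of 10 against 16.4% of all genes called lower and 13% higher, with a median of 0.09 against -0.28. On library totals B2m at 1.06, H2-K1 at 0.97, H2-D1 at 0.82 and Tapbp at 1.27 were called higher, against 20.5% of all genes, H2-Q7 stayed lower (5.97%), the median was 0.83 and that of all genes 0.42. T cell markers, 11 of 11 detected, reached 908 and 1210 CPM in macrophage-like cells, or 13.1% and 15.1% of the T-cell-like level, and their part was not tested.

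Over melanoma-like cells, macrophage-like cells had 6 genes called higher (12.8% of all genes). These were H2-Q7 at 3.54, H2-T23 at 2.23, Psmb8 at 2.09, H2-K1 at 1.03, Tapbp at 1.01 and H2-D1 at 0.81, with a median of 0.91. Library totals called the same 6, DESeq2 called 5 without H2-D1, classes per cell and resolution 0.8 each called 4 (H2-K1, H2-Q7, H2-T23 and Psmb8), and without the library as a block 2 remained (H2-Q7 and Psmb8).

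**Figure D3:**
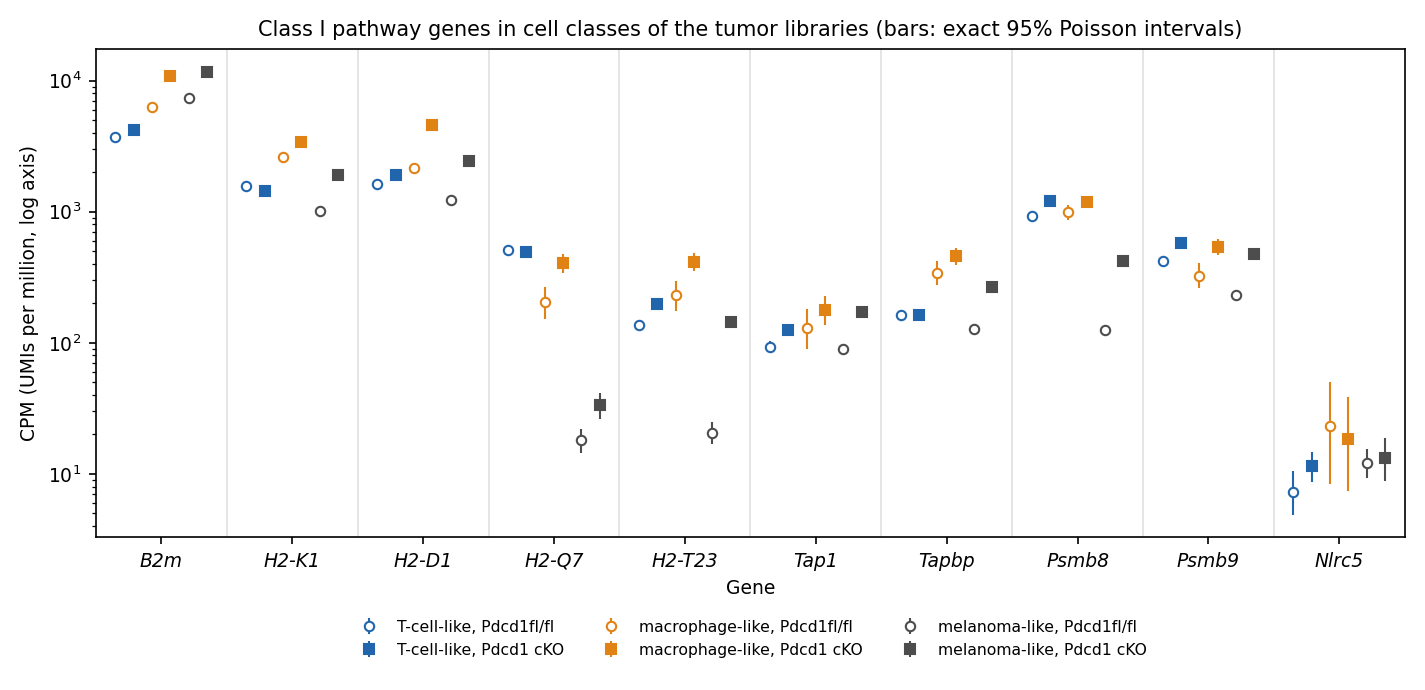
CPM of the 10 genes (log axis) in T-cell-like, macrophage-like and melanoma-like clusters of the tumor libraries, with exact 95% Poisson intervals. H2-Q7 stands at 18.0 and 33.2 CPM in melanoma-like cells and at 512 and 495 in T-cell-like cells, and B2m at 7367 and 11709 and at 3697 and 4216.

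The melanoma-like cells of the 2 libraries differed in 9 of the 10 genes. H2-T23 stood at 20.4 and 145 CPM, Psmb8 at 125 and 424, Tapbp at 127 and 268, and Psmb9 at 230.1 and 477. H2-D1 stood at 1237 and 2456 CPM, H2-K1 at 1009.7 and 1890.4, B2m at 7367 and 11709, Tap1 at 89.5 and 171, and H2-Q7 at 18.0 and 33.2. All were high in the library labelled Pdcd1 cKO, and Nlrc5 alone was close, at 12.1 and 13.1 CPM (64 and 30 UMIs). The folds were 7.09 for H2-T23 (log2 2.83, 2.51 to 3.15), 3.39 for Psmb8 (1.76, 1.62 to 1.91) and 1.59 for B2m (0.67, 0.65 to 0.69). All 9 genes with at least 100 UMIs were at least 1.5-fold higher, against 4.45% of 6309 genes, with a median of 0.99 against -0.12.

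Of the other pathway genes 11 of 23 were at least 1.5-fold higher and 1 lower, beside 4.45% and 12.2% of all genes. Their median was 0.31, with H2-Q4 and H2-Q6 at 1.21, Irf1 at 1.16, H2-T22 at 1.11 and Psmb10 at 1.01. Macrophage markers in the melanoma-like cells, 11 of 11 detected, rose with the label from 31.4 CPM (led by Lyz2) to 181 CPM (led by C1qb), and fibroblast markers went from 291 CPM (5 of 5, led by Col1a2) to 1.75 CPM (2 of 5, with Col1a1, Dcn and Pdgfra at 0). Their part in the class I difference was not tested. The cells carry no Pdcd1 deletion, and the tumors pooled mice.

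A finer clustering split the cells of the melanoma-like cluster into cluster 3, led by Col1a2, Espn, Car9 and Pgf, and cluster 7, whose 10 highest-fold genes are Gm4841, Grm3, Iigp1, Tgtp1, Trp53cor1, Gm4951, Tgtp2, Ifit3b, Foxp2 and Srrm4os. Iigp1, Tgtp1, Tgtp2 and Ifit3b are known as interferon-induced, with no list fixed for this and no test. By the naming rule cluster 7 is melanoma-like and cluster 3 has no name, since the 10 highest-fold genes of cluster 3 hold the fibroblast marker Col1a2 and no melanoma marker, although all 10 melanoma markers passed there. This description was chosen after the values were seen, the clusters were made without the 10 genes or the pathway list, and no test was made. Cells numbered 120 and 26 in cluster 3 and 22 and 32 in cluster 7. Cluster 7 was higher in class I RNA in both libraries, summing to 14854.5 and 20883 CPM against 9413 and 12158.

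H2-T23 stood at 16.9 and 61.4 CPM in cluster 3 and 40.0 and 195 in cluster 7, and Psmb8 at 92.1 and 184 and at 310.2 and 570.2. H2-K1 stood at 902 and 1099 CPM in cluster 3 and 1615 and 2371 in cluster 7. These genes differed between clusters and between libraries, and no test was made to separate cluster from library. Cluster 3 of the library labelled Pdcd1 cKO lay below cluster 7 of the other for H2-K1 and Psmb8, and above it for H2-T23. Cluster 7 over cluster 3 was at least 1.5-fold higher for 7 of 8 genes in the library labelled Pdcd1fl/fl (4.95% of 5190 genes, with 12.3% lower) and for 8 of 8 in the other (12.6% of 2554, with 4.82% lower), with medians of 1.19 and 1.11. Psmb8 was at 1.75 and 1.63, Tap1 at 1.59 and 1.04, H2-T23 at 1.24 and 1.67, and B2m at 0.55 and 0.61.

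Of the rest of the pathway 9 of 17 and 8 of 15 genes were at least 1.5-fold higher in cluster 7, beside 4.95% and 12.6% of all genes. Among them were Psmb10 at 1.72 and 1.5 and Tap2 at 1.44 and 1.66. Psmb5 at 0.26 and 0.31, Psmb6 at 0.25 and -0.26 and Psmb7 at 0.10 and -0.08 did not reach the fold. No list of induced genes was fixed, and a difference between induced and constitutive genes was not tested. Within one cluster the library difference shrank. In cluster 3, 4 of 9 genes were at least 1.5-fold higher in the library labelled Pdcd1 cKO (4.2% of 5189 genes, with 17.6% lower), with a median of 0.55, H2-T23 at 1.86 and Psmb8 at 1.00. In cluster 7 it was 3 of 8 (6.07% of 2568, with 4.67% lower), with a median of 0.54, H2-T23 at 2.29, Psmb8 at 0.88 and H2-D1 at 0.72. Macrophage markers summed to 31.0 and 56.8 CPM in cluster 3 and 33.8 and 256 CPM in cluster 7, and fibroblast markers to 341 CPM (5 of 5 detected, led by Col1a2) and 1.16 CPM (1 of 5) in cluster 3 and 7.51 and 2.11 CPM (2 of 5 each) in cluster 7. Their part was not tested.

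T-cell-like cells of the 2 tumor libraries had a smaller median difference than the groups above. B2m stood at 3697 and 4216 CPM, H2-D1 at 1632 and 1896, H2-K1 at 1575 and 1440.4, and H2-Q7 at 512 and 495. Psmb8 stood at 930.1 and 1214 CPM, Psmb9 at 421 and 577, H2-T23 at 137 and 197, and Tap1 at 93.1 and 125. Immunoproteasome subunits, Tap1 and H2-T23 were somewhat higher in the library labelled Pdcd1 cKO and H2-K1 somewhat lower. The log2 ratios were 0.52 (0.37 to 0.68) for H2-T23, 0.46 (0.37 to 0.54) for Psmb9, 0.43 (0.24 to 0.62) for Tap1, 0.38 (0.33 to 0.44) for Psmb8 and -0.13 (-0.18 to -0.08) for H2-K1. Of the 9 genes with at least 100 UMIs 0 reached 1.5-fold, where 10.7% of 4999 genes were higher and 5.3% lower, and their median was 0.22 against 0.08 over all genes. Nlrc5 rested on 28 and 60 UMIs, with a ratio of 0.64 (-0.03 to 1.34) that turned to -0.71 after thinning, so its direction was not detectable at this depth. Within cluster 0 and within cluster 1, H2-T23 alone of 9 genes reached the fold, at 0.65 and 0.61, beside 9.07% and 7.05% of all genes higher and 6.59% and 3.2% lower.

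In macrophage-like cells 5 of 9 genes were at least 1.5-fold higher in the library labelled Pdcd1 cKO, against 16.4% of 905 genes. H2-D1 was at 1.10, H2-Q7 at 0.99, H2-T23 at 0.86, B2m at 0.80 and Psmb9 at 0.73, with a median of 0.73 against -0.04 over all genes, from 27 and 34 cells.

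**Figure D4:**
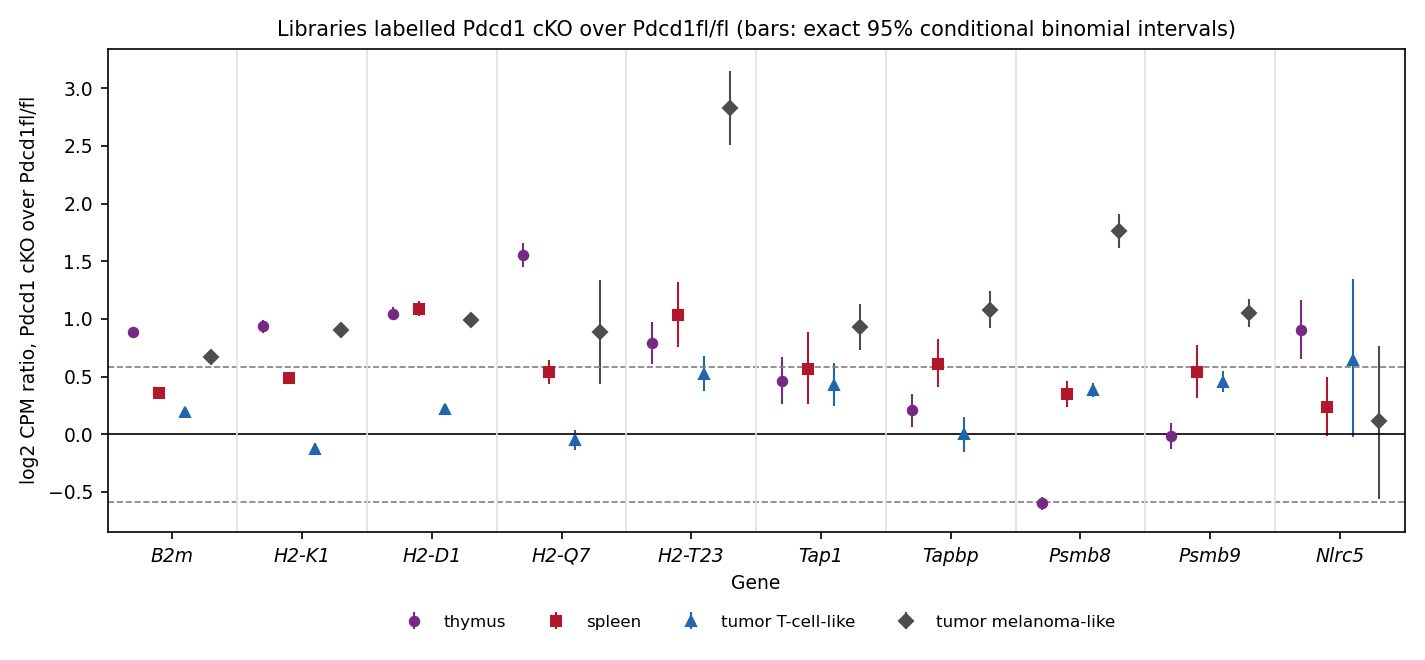
Log2 CPM ratio of the library labelled Pdcd1 cKO over that labelled Pdcd1fl/fl for the 10 genes in 4 cell groups, with exact 95% conditional binomial intervals and dashed lines at 1.5-fold. H2-T23 in melanoma-like cells reaches 2.83, thymic Psmb8 lies at -0.60, and T-cell-like tumor cells run from -0.13 for H2-K1 to 0.64 for Nlrc5.

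Over the 16 sums of library and class, the 10 genes formed a core with loose ends. Pearson's r between log2(CPM + 1) of a gene and the mean of the other 9 was 0.93 for H2-T23, 0.92 for H2-K1 and H2-D1, 0.88 for Tapbp and 0.80 for Tap1. It was 0.69 for B2m, 0.56 for Psmb9, 0.41 for Psmb8, 0.34 for H2-Q7 and -0.06 for Nlrc5. H2-K1 with H2-D1 gave 0.97, Tap1 with Psmb9 0.84 and Psmb9 with Nlrc5 -0.66. The sums share libraries and depth, so these are descriptions. Outside both lists the genes most like the mean of the 10, among 12758, were Pld3 (0.927), Phf11b (0.916), Gng2 (0.900), S100a11 (0.896) and Cotl1 (0.890).

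Position is shared as well, since 8 of the 10 lie on chromosome 17 (GRCm39, GENCODE vM39). In order these are Tapbp at chr17:34134873-34148267, H2-K1 at chr17:34214987-34219321, Psmb9 at chr17:34400960-34406738, Tap1 at chr17:34405996-34416199, Psmb8 at chr17:34416690-34420428, H2-D1 at chr17:35481691-35486475, H2-Q7 at chr17:35658131-35662749 and H2-T23 at chr17:36340229-36345571. B2m lies at chr2:121977957-121983594 and Nlrc5 at chr8:95160984-95253900. Tap1 and Psmb9 lie on opposite strands with gene starts 742 bases apart, and their RefSeq promoter windows of 250 bases share 225 bases.

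Heavy chain transcripts share sequence, which bears on which gene a read is given to. Of all 91-base windows of the canonical transcript, the length of the cDNA read, 23.7% for H2-Q7, 9.99% for H2-T23, 5.33% for H2-D1 and 0.0654% for H2-K1 also occur in another gene's transcripts. In the last 500 bases the shares are 5.85%, 16.6%, 0% and 0%. For H2-Q6, H2-Q4 and H2-T22 they are 13.3%, 4.62% and 17.2% over the whole transcript and 13.7%, 11% and 25.9% in the last 500 bases. How the pipeline gave such reads to genes is not stated, so the values of H2-Q7, H2-T23 and those 3 genes are less certain than the rest.

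Promoters of 3 heavy chains, H2-K1, H2-D1 and H2-Q7, share an arrangement of motifs. RefSeq promoters (GRCm38.p6, 250 bases before the gene start) matched 9 of the 10 genes, Nlrc5 having none. Motifs were searched on both strands: GAANNGAAA (interferon regulatory factor), GGGNNTTCC (NF-kappaB), TGACG (the core of the CRE and X2 boxes) and CCAAT (Y box). They occur in 6.34%, 4.88%, 17.9% and 34.5% of 27025 promoters of the same length. A further motif that was searched, TTCNNNGAA (GAS), occurs in 7.18% of these promoters and, of the 9, in that of Psmb8 alone. It is not counted among the 4. H2-K1, H2-D1 and H2-Q7 each hold all 4 in the same order, with the NF-kappaB and interferon motifs starting 21, 21 and 20 bases apart, the interferon motif and TGACG 49 bases apart in all 3, and TGACG and the first Y box 25, 25 and 24 apart. The promoter of H2-T23, also called higher with CD8 alone, holds only CCAAT of the 4. GAANNGAAA and GGGNNTTCC are found in those 3 of 9 promoters alone, CCAAT in 8 of 9 and TGACG in 6 of 9, so the called genes B2m, H2-T23, Tap1 and Tapbp lack the first 2. A match is a description of letters and no evidence of binding. The 3 promoters are shown 5' to 3' on the gene's strand because of this arrangement, with motif matches in capitals, none of which overlap. They are H2-K1 at chr17:34000348-34000597 (minus strand), H2-D1 at chr17:35262844-35263093 and H2-Q7 at chr17:35438905-35439154 (both plus strand).
H2-K1: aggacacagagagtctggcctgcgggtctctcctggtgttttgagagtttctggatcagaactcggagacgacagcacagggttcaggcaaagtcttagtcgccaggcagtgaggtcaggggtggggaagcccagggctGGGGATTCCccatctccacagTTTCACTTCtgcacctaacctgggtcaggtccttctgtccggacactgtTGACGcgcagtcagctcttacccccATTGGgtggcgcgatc
H2-D1: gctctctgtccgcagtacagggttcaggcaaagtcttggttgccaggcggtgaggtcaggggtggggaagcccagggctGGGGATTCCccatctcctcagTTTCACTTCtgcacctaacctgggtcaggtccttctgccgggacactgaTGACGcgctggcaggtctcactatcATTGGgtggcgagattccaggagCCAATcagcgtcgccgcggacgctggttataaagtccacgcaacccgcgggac
H2-Q7: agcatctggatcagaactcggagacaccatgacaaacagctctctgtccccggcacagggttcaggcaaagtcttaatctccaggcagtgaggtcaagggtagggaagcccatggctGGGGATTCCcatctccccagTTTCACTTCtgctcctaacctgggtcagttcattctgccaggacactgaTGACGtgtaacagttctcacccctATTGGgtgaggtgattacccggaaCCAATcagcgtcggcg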

How the data were processed

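The authors deposited raw UMI counts per gene and cell barcode, made with the PIPseq pipeline from reads aligned to GRCm39 (their later work used Seurat 4.3.0). The members and gene lists were chosen with earlier results of these data known. The methods' cell filter was used: no fewer than 500 genes or 1000 UMIs per barcode, with mitochondrial UMIs up to 20%. It left 1067, 2635, 1478, 4928, 456 and 561 cells with total UMIs from 2220981 to 19143524 per library. No doublet caller was run. Thymic cells were grouped by Dntt and CD8 RNA (0 or at least 1 UMI). Tumor cells were clustered with scanpy 1.11.5 and leidenalg 0.10.2 (2000 variable genes, 20 components, 15 neighbours) without the 10 genes or the pathway list. A cluster took a type's name when at least 3 of its markers, more than of any other type, were found in at least 10% of the cells at 2-fold or more over the others, unless its 10 highest-fold genes held more markers of another type, or held none of its own while 3 times its median UMIs stayed under the mean of the library medians. Resolution was first 0.8, which left clusters unnamed by this rule, and was set after a scan of the data to 0.3, the lowest step of 0.1 at which every cluster took a name, with 0.8 kept as the alternative.

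UMIs were summed per library and class. Classes and tissues were compared with edgeR 4.0.16 (TMM, quasi-likelihood test, minimum count 10, library as a block, or genotype label for tissues) in R 4.3.3 with limma 3.58.1, with BH adjustment over all genes tested and 0.05 as the threshold, and checked on simulated data. Libraries of the 2 genotypes were compared by CPM ratios without a test, with exact conditional binomial intervals at 95%, for genes with at least 100 UMIs. Alternatives were DESeq2 1.42.0, library totals, no count filter, no block, other cell filters, thinning, no cycling cells, classes per cell, no top 5% of cells by UMIs, and each library left out. In the fits after thinning, Dntt and CD8 RNA were read from the thinned counts, so thymic classes and cells with CD8 RNA changed. Named genes were the 10, Pdcd1, 15 fixed pathway genes and the 5 most alike genes, besides marker, class and cluster genes. H2-Q2 was named after its value was seen, and some listed items are withheld from the text. Other pathway genes were given as counts. Python 3.11.15, numpy 2.4.6, scipy 1.17.1, pandas 2.3.3 and matplotlib 3.10.9 were used.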

Additional observations from a re-analysis of the deposited data

Results flagged for a closer look

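Genotype-label ratios had opposite signs between tissues for 2 genes whose 95% intervals, of counting error alone, did not reach 0. H2-K1 was higher in the library labelled Pdcd1 cKO in thymus (log2 0.94) and spleen (0.49) and lower in tumor T-cell-like cells (-0.13). Psmb8 was higher in spleen (0.35) and tumor T-cell-like cells (0.38) and lower in thymus (-0.60). Of these values only the thymic ones reached 1.5-fold. The interval of H2-K1 in tumor T-cell-like cells reached 0 after thinning (-0.30 to 0.04). Thymic Psmb8 fell below the fold in most alternatives, in some by little. Each difference between tissues was not tested, since there is 1 library per genotype and tissue.

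Class I RNA was also present in splenic barcodes of the library labelled Pdcd1fl/fl that the cell filter leaves out. In 5451 barcodes with a median of 654 UMIs the 10 genes summed to 6567 CPM, beside 6595 CPM in the filtered cells of that library, and the difference was not tested.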

How the results depend on the processing

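Of 131 values of the comparisons under other settings, 115 stayed within the spread, interval or fold set for them and 16 moved. None that was called turned its sign, but 8 of 77 medians did, all from 0.09: macrophage-like over T-cell-like to as low as -0.27 and spleen over thymus to -0.18. Of 768 values of single genes, 655 stayed, 54 moved, 36 lost and 22 gained a call, and 1 reversed: Nlrc5 in tumor T-cell-like cells, past the fold at 0.64 but not called with fewer than 100 UMIs, at -0.71 after thinning. In all 43 of the 768 turned their sign, such as the uncalled thymic genotype ratio of Tapbp, from 0.21 (0.06 to 0.35) to -0.34 (-0.58 to -0.09) in cells with CD8 RNA. On a total without mitochondrial genes, ribosomal protein genes and Malat1 the thymic genotype median was 0.99, and in cells with CD8 RNA 0.48. Library totals gave medians of 1.45 for thymic CD8 alone over Dntt alone, 0.83 for macrophage-like over T-cell-like and 0.30 for tumor over spleen, with 5 genes called in each of the last 2. The first was 1.32 without cycling cells and 1.26 after thinning, which left 5 genes called for tumor over spleen. With no replicate block 3 genes were called in thymus, 2 each for T-cell-like and macrophage-like over melanoma-like and 1 for macrophage-like over T-cell-like cells. Resolution 0.8 gave 5 for the last and, for T-cell-like over melanoma-like, a median of 0.12 and 4 calls, but compares other cells (123 and 400 T-cell-like, 22 and 32 melanoma-like, from cluster 7 alone). Leaving out 1 library gave thymic medians of 1.45 to 1.52, T-cell-like over melanoma-like 0.26 to 1.31, macrophage-like over T-cell-like -0.27 to 0.32, tumor over spleen 0.75 to 1.43 with 5 to 10 called, and spleen over thymus -0.18 to 0.32 with 0 called by edgeR and 0 to 3 genes under an unadjusted p of 0.05. The tissue values are edgeR fits of 5 sums that assume the lone sample to vary like the others, and those within thymus or tumor are values with no test and no calls. The cause was not tested. The setting without a cell filter was not run for tumor cells, whose clusters need it. Depth limits Nlrc5 in tumor and every gene in the 27 and 34 macrophage-like cells.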
